A study of Mus musculus with 8 samples.

Results

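The genes described here are 39 mouse genes of the lysosome, taken by symbol from a list of enzymes, cathepsins, membrane proteins and proton pump subunits, out of 53342 gene identifiers in each count table. Messenger RNA was read in macrophages isolated by sorting from infarcted hearts of wild-type C57BL/6 mice, 8 weeks old, 3 days after myocardial infarction (MI). Cells with a high (Ly6Chi) and a low (Ly6Clo) level of the surface antigen Ly6C were sorted apart and kept in medium with fetal calf serum for 24 hours, either without or with interleukin 21 (IL-21, 100 ng/mL). These 4 groups held 2 libraries each, numbered 1 and 2 in the sample titles, and all 8 libraries came from wild-type animals. Cells of mice without the IL-21 receptor are named in the protocols but are not analysed here. The labels do not say what a number marks, nor whether the 2 libraries of a group came from separate mice or cultures, so that p-values cover only the scatter among the libraries at hand, and that scatter may be technical.

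Lysosomes are acidic compartments in which a macrophage breaks down what it has engulfed. A rotary pump, the V-ATPase, moves protons into the lumen with energy from ATP, and the low pH activates the cathepsins (proteases) as well as the enzymes that cleave sugars and lipids. In the infarcted heart, macrophages use this machinery to clear dead heart muscle cells. IL-21 is a T cell cytokine whose receptor signals through STAT transcription factors. Many lysosomal genes are regulated by TFEB and its relatives, which bind DNA around the letters CACGTG.

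By role, the list holds 11 cathepsins and related peptidases, 7 glycan-cleaving enzymes, 6 lipid-handling enzymes and carriers, 7 lysosomal membrane proteins, 6 proton pump proteins and 2 other lumenal glycoproteins. Of the 39 genes, 38 had enough counts to be tested. The exception was Atp6v0c, which encodes the proton-conducting ring of the pump, at 17.3 to 46.4 CPM (counts scaled by library size).

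Promoter sequences from RefSeq (GRCm38.p6, the build also called mm10), 250 bases before to 50 after each annotated start, were matched to 33 of the 39 genes by symbol. The 4 printed here were taken from genes with a motif match to which the comparisons return, Ctsc for IL-21 and Ctsl, Ctsd and Glb1 for the subsets. Capitals mark a TTCNNNGAA match (the palindrome typical of STAT binding) in Ctsc, CACGTG in Ctsl and Glb1, and the longer TCACGTGA in Ctsd, where a further CACGTG is left in lower case.
Ctsc, chr7:88277835-88278134, plus strand: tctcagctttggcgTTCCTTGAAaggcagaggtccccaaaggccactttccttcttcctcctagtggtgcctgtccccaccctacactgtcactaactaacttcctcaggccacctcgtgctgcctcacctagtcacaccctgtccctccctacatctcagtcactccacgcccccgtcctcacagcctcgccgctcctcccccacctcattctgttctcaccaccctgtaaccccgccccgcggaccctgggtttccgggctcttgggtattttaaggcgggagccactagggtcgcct
Ctsl, chr13:64370471-64370770, minus strand: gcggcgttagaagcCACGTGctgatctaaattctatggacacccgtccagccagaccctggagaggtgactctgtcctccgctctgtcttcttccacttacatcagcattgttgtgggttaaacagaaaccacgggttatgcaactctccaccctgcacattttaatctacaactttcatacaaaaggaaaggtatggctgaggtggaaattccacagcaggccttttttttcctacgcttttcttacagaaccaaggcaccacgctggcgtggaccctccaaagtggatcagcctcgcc
Ctsd, chr7:142387778-142388077, minus strand: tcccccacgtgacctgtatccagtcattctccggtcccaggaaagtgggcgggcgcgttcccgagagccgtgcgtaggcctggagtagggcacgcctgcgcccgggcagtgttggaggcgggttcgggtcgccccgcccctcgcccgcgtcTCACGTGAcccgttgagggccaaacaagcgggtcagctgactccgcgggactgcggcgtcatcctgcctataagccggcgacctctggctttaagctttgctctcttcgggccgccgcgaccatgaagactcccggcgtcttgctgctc
Glb1, chr9:114400828-114401127, plus strand: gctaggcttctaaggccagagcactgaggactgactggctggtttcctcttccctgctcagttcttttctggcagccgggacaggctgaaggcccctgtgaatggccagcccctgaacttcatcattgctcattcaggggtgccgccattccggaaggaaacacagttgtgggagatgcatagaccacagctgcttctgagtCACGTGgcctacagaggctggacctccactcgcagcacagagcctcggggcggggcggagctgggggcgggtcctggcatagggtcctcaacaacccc

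CACGTG occurred in the promoters of 10 of the 33 genes (30.3%), against 8.09% of all 27025 genes in the promoter table: Atp6v0d1, Atp6v1a, Ctsa, Ctsd, Ctsl, Gla, Glb1, Lamp1, Lgmn and Mcoln1. The longer TCACGTGA, which contains CACGTG, occurred in 6 of them (18.2%, against 1.12% of all genes): Atp6v0d1, Atp6v1a, Ctsa, Ctsd, Gla and Mcoln1. TTCNNNGAA occurred in Ctsc alone among the 33, against 9.55% of all genes. Lipa, Lyz2, Man2b1, Hexa, Ctsk, Ctsz and Grn, to which the comparisons also return, had a promoter with none of the 3 motifs. All 3 motifs read the same on both strands. A match describes the letters in the window and shows no binding.

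Deposited totals were 224329 to 483593 counts per library, so that 3 counts equal 6.58 to 14.9 CPM. Libraries numbered 1 held 257385 to 287131 counts, and those numbered 2 held 224329 to 483593. The labels were checked with Ly6c2, which encodes Ly6C and was lower in Ly6Clo cells by a log2 fold change of -3.19 (adjusted p = 0.000837 in the quasi-likelihood test of edgeR, here and throughout with Benjamini-Hochberg adjustment over all tested genes). All 7 macrophage markers examined passed the filter on low counts. The T cell, B cell, dendritic cell and cardiomyocyte lists summed to at most 6.23, 4.0, 28.6 and 89.9 CPM in any library.

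Many of the 39 lysosomal transcripts were among the most abundant of these cells. Summed over the 39 genes they made up 5.76 to 6.73% of all deposited counts. By mean CPM, 10 of the 38 tested genes lay in the top 1% of the 5256 genes tested and 27 in the top 10%. Because the library kit reads only the 3′ end of each transcript, counts were not divided by transcript length, and levels are compared between genes on this scale. In all, 16 of the genes averaged over 1000 CPM, 20 averaged 100 to 1000 CPM, and Mcoln1, Glb1 and Atp6v0c were below 100 CPM.

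The 3 highest were all cysteine cathepsins, which carry a catalytic cysteine. Ctss, whose product trims the invariant chain of MHC class II, had CPM of 11348 and 11826 in Ly6Chi cells without IL-21, 10789 and 13277 with IL-21, 10398 and 9872 in Ly6Clo cells without IL-21, and 10776 and 10738 with IL-21 (number 1 first, here and below). Ctss ranked the 6th most abundant of the genes tested. Ctsl, another broadly acting endoprotease, ranged from 5039 to 9872 CPM. Ctsb, which acts as both an endo- and an exopeptidase, was at 6388, 6678, 6364 and 6730 CPM in the Ly6Chi libraries (without IL-21, then with it) and at 7158, 5875, 8313 and 7294 CPM in the Ly6Clo libraries, which overlapped. Ctsl and Ctsb exchanged places between the subsets: Ctsl was the lower of the 2 in the 4 Ly6Chi libraries and the higher in the 4 Ly6Clo libraries. The end of Ctsb overlaps an exon of Fdft1 on the opposite strand, so its count is uncertain unless strand was used in counting.

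Next came Cd63, a tetraspanin of lysosomal and exosomal membranes, at 4581, 4206, 4236 and 5119 CPM in Ly6Chi libraries and 5733, 5094, 5755 and 5360 CPM in Ly6Clo libraries. Psap, the precursor of the saposins that help enzymes reach lipids, was at 4635, 4316, 4218 and 4723 CPM in Ly6Chi libraries and at 6140, 4208, 5391 and 4563 CPM in Ly6Clo libraries. The subsets overlapped in both genes. These 5 genes together took 50.0 to 55.5% of the summed level in each library, and the 10 highest took 73.2 to 75.4%. Cd63 is uncertain because 73.2% of the 75-base windows in the last 500 bases of its transcripts also occur in a processed copy, Cd63-ps. Only 7 of the 38 pairs of neighbours in the order by mean CPM kept the same order in all 8 libraries, among them Ctss above Ctsl, Grn above Npc2 and Scarb2 above Npc1. For the other 31 pairs the order varied between libraries.

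**Figure D1:**
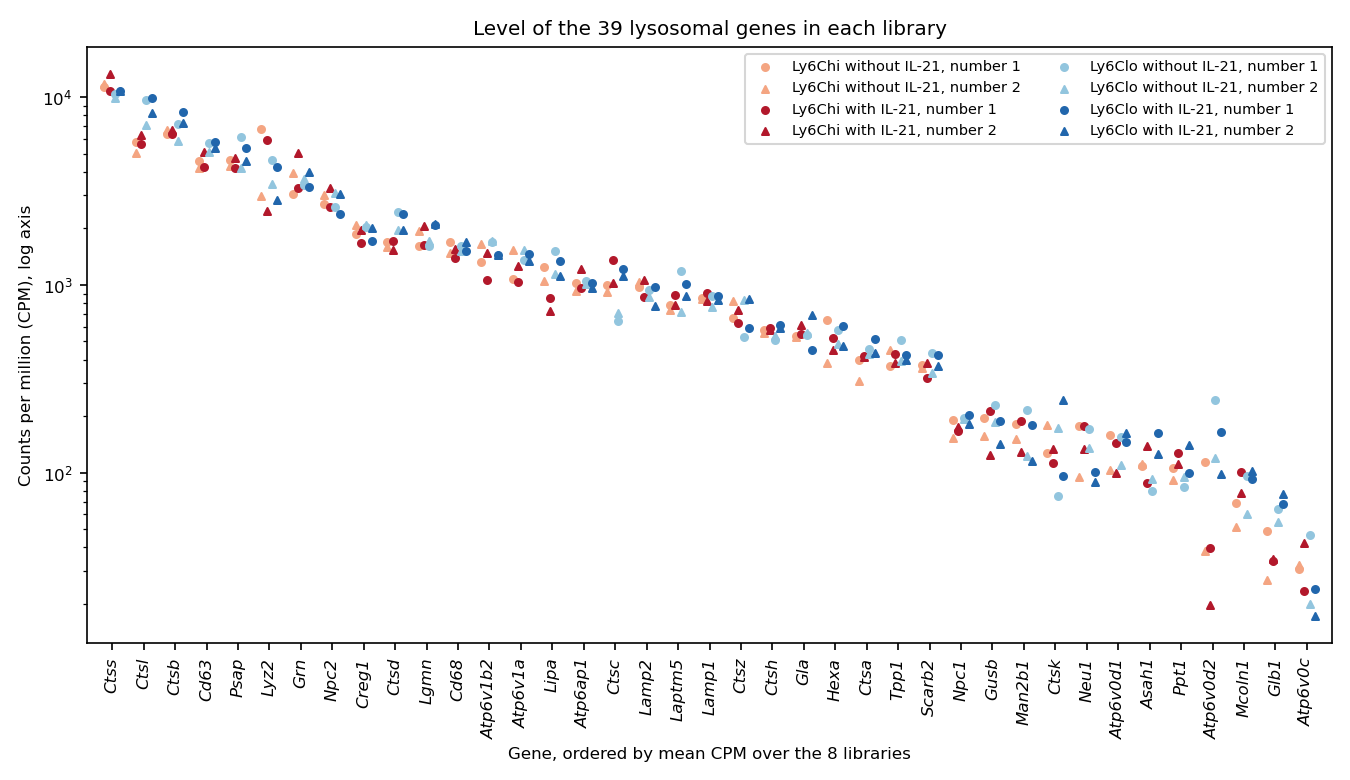
Level of each of the 39 lysosomal genes (CPM, log axis) in the 8 libraries, ordered by mean CPM; circles are libraries numbered 1, triangles those numbered 2, and colours the 4 groups. The points of most genes lie close together, with wide spreads for Lyz2, Ctsk, Atp6v0d2 and Glb1.

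The genes varied little across the libraries. The highest library was under 2 times the lowest for 31 of the 39 genes, with a median ratio of 1.60. Lamp1, a major glycoprotein of the lysosomal membrane, had the narrowest range, 764 to 903 CPM, although its end overlaps Grtp1 on the opposite strand. Cd68, a lysosomal glycoprotein used as a macrophage marker, ranged from 1395 to 1701 CPM, Ctsh, an aminopeptidase, from 507 to 612 CPM, and Creg1, a lysosomal glycoprotein that is also secreted, from 1679 to 2090 CPM. The median pooled standard deviation (SD) within groups, on a log2 scale, was 0.205 for the 38 tested genes against 0.364 for 5239 tested genes with a value. The 38 genes were not matched to the rest on level.

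The remaining genes spanned a wide range of levels. Among the peptidases, Lgmn, the asparaginyl endopeptidase that processes cathepsins, ranged from 1612 to 2102 CPM, and Tpp1, which removes tripeptides from protein ends, from 369 to 509 CPM. Gla, the alpha-galactosidase, ranged from 448 to 695 CPM. Of the lipid handlers, Npc1, the membrane partner of Npc2 in cholesterol export, ranged from 153 to 204 CPM, Ppt1, which removes palmitate from proteins, from 83.7 to 141 CPM, and Asah1 from 80.0 to 162 CPM. Of the membrane proteins, Lamp2 ranged from 773 to 1059 CPM, Laptm5 from 720 to 1188 CPM, Scarb2, the receptor that carries beta-glucocerebrosidase to lysosomes, from 321 to 434 CPM, and Mcoln1 from 51.2 to 102 CPM. The ends of Npc1 and Ppt1 overlap Rmc1 and Cap1 on the opposite strand, and Atp6v0c shares 32.2% of its end windows with the copy Atp6v0c-ps2. Of these genes, those tested were called in 0 of the 8 contrasts.

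In the fit without a block, IL-21 gave no called change in any of the 38 tested genes. With the subsets averaged, 9 of all 5256 tested genes (0.171%) were called at an adjusted p under 0.05, and 0 of the 38. In Ly6Chi cells 0.019% of all tested genes were called, in Ly6Clo cells 0.133%, and for the IL-21 effect in one subset minus that in the other 0%, with 0 of the 38 in each. At an unadjusted p under 0.05 in the same edgeR test, 1 of the 38 passed on average (5.33% of all tested genes), 1 in Ly6Chi cells (3.52%), 2 in Ly6Clo cells (3.52%) and 0 for the difference (1.75%), shares near or below the background. DESeq2's Wald test called 0 of them in all 4 contrasts. With the replicate number as a block, 1 of the 38 was called on average (1.14% of all tested genes), 0 in Ly6Chi cells (0.266%), 1 in Ly6Clo cells (0.552%) and 0 for the difference (0.019%), and the gene was Ctsc both times. The median log2 fold change of the 38 genes was 0.02 on average (all tested genes, -0.01), -0.01 in Ly6Chi cells (0.00) and 0.04 in Ly6Clo cells (-0.01). In this average, 19 of the 38 had a positive sign and 19 a negative one, and for 35 of them the 95% interval lay within a 2-fold change either way.

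Ctsc encodes cathepsin C, the dipeptidyl peptidase that activates serine proteases of immune cell granules, and it had the largest positive IL-21 difference of the 38 genes. Its CPM were 998 and 915 in Ly6Chi cells without IL-21 and 1362 and 1030 with it. Ly6Clo cells had 639 and 706 CPM without IL-21 and 1213 and 1112 CPM with it. All 4 stimulated libraries were above all 4 unstimulated ones. Ctsc was the only one of the 38 with no overlap in the higher direction, which 2.23% of all tested genes showed, and 0 of the 38 had no overlap in the lower direction, which 1.43% of all tested genes showed. The averaged log2 fold change was 0.55 (SE 0.15, 95% interval 0.23 to 0.88), and it did not pass the test (edgeR, adjusted p = 0.339). Within the libraries numbered 1 the log2 ratio of the means was 0.65, and within those numbered 2 it was 0.40. With the replicate number as a block, Ctsc passed at a log2 fold change of 0.55 (SE 0.11, edgeR adjusted p = 0.00496). In Ly6Clo cells its log2 fold change was 0.78 (SE 0.22), with an edgeR adjusted p of 0.773 that became 0.00777 with the block. In Ly6Chi cells it was 0.32 (SE 0.22) and did not pass, and the difference between the subsets, 0.46 (SE 0.31), did not pass either.

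At the other end stood Atp6v0d2, which encodes the form of the pump's d subunit found in osteoclasts and some macrophages. It was measured at 114 and 38.1 CPM in Ly6Chi cells without IL-21 and at 39.5 and 19.9 CPM with it. In Ly6Clo cells it was at 243 and 119 CPM without IL-21 and at 165 and 98.4 CPM with it. The stimulated library was lower than the unstimulated one of the same number in each of the 4 pairs, but the groups overlapped. Its averaged IL-21 log2 fold change of -0.89 (SE 0.41, edgeR adjusted p = 0.932) did not pass, also not with the block (adjusted p = 0.0822). Leaving out single libraries gave -1.19 to -0.40, with -0.40 and -0.61 without number 1 of Ly6Chi and of Ly6Clo without IL-21. Over all 8 libraries, the counts of Atp6v0d2 were 4 to 58.5.

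Further IL-21 differences that missed the threshold are given for size only. In Ly6Chi cells, the log2 fold change of Mcoln1, a cation channel that releases lysosomal calcium, was 0.62 (SE 0.38), with 69.4 and 51.2 CPM without IL-21 and 101 and 77.8 CPM with it. It was 0.39 without Ly6Chi without IL-21 number 2. The log2 fold change of Lipa, the acid lipase that splits cholesteryl esters, was -0.55 (SE 0.23). Lipa was at 1253 and 1055 CPM in these cells without IL-21 and at 851 and 722 CPM with it. In Ly6Clo cells, Asah1, the acid ceramidase, stood at 0.70 (SE 0.31), and Neu1, a sialidase, at -0.68 (SE 0.33). Neu1 was at 170 and 135 CPM in Ly6Clo cells without IL-21 and at 101 and 89.3 CPM with it, whereas Ly6Chi cells had 176 and 95.3 CPM without and 177 and 134 CPM with it. This gave the lowest value of the 38 for the difference of IL-21 effects, -0.89 (SE 0.46), which did not pass. It was -1.40 without Ly6Chi without IL-21 number 1 and -0.51 without its number 2.

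The 7 macrophage markers, among them Adgre1 and Csf1r, summed to 3319 to 3980 CPM without IL-21 and to 4141 to 4669 CPM with it. All 7 had a positive sign in the averaged IL-21 contrast. In that contrast 0 of the 7 passed, and 1 did with the block, Mrc1, a mannose receptor (0.96, SE 0.51 without the block, edgeR adjusted p = 0.000985 with it). The fibroblast list (6 genes, 2 tested) summed to 71.7 and 160 CPM without IL-21 and to 15.8 and 72.0 CPM with it in Ly6Chi cells. In Ly6Clo cells it summed to 20.8 and 32.9 CPM without IL-21 and to 112 and 136 CPM with it, and neither tested gene, Col1a2 or Col3a1, passed in either subset. The part of these markers in the lysosomal IL-21 differences was not tested.

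**Figure D2:**
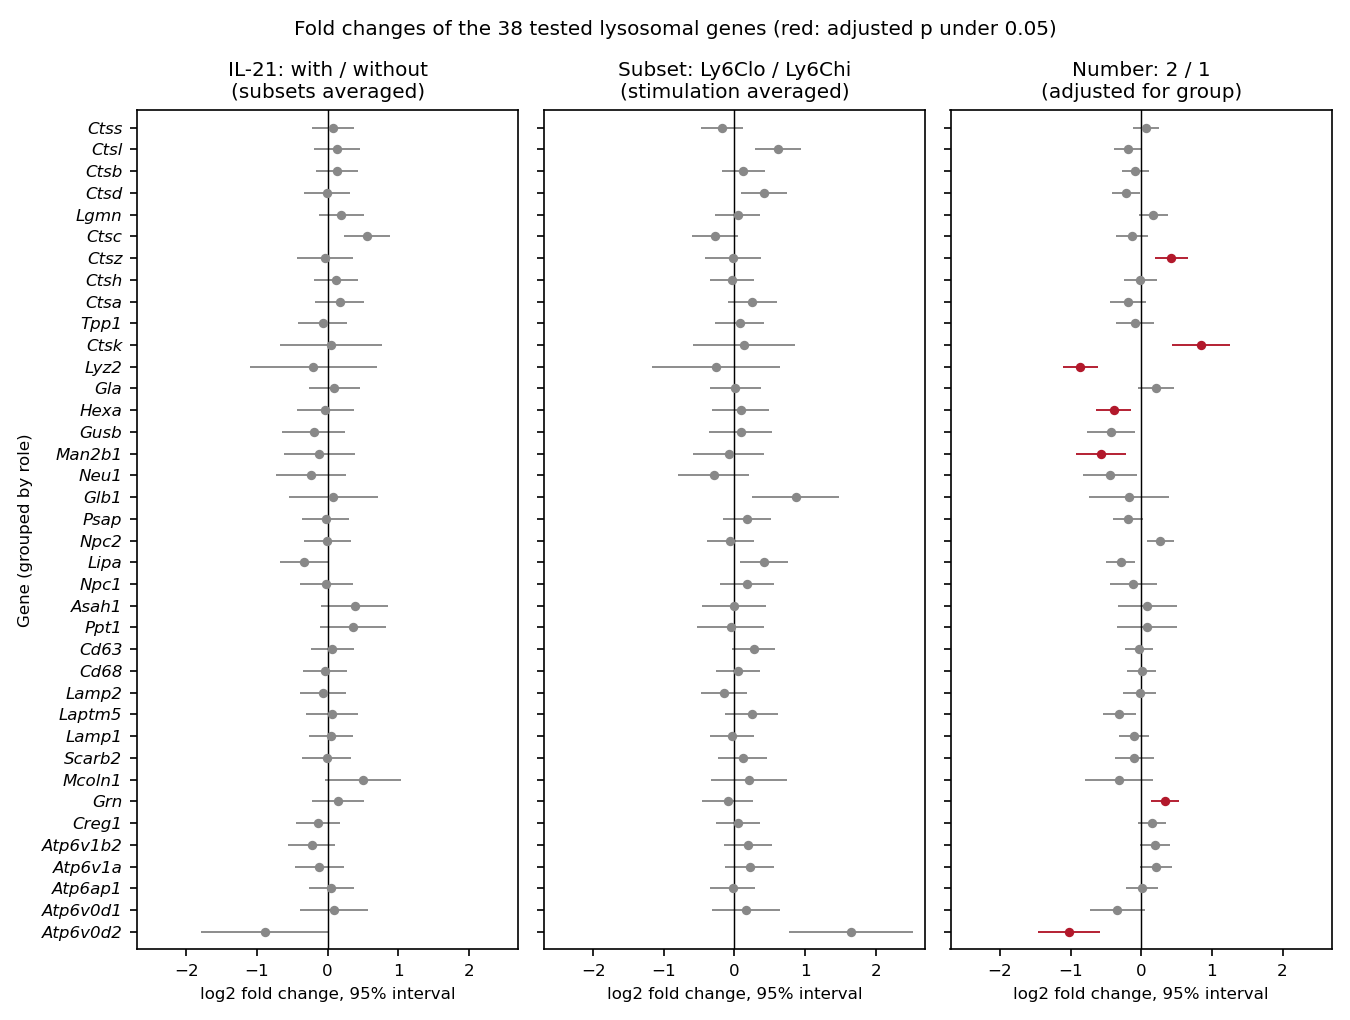
Log2 fold changes with 95% intervals (edgeR) of the 38 tested genes, grouped by role, for IL-21 (left), subset (middle) and replicate number (right); red marks an adjusted p under 0.05. No gene is red for IL-21 or subset, and 7 are red for replicate number.

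Between the subsets, no tested lysosomal gene passed in the fit without a block, and up to 4 did with it. Averaged over stimulation, 10 of all tested genes (0.19%) were called between Ly6Clo and Ly6Chi cells, against 0 of the 38. Without IL-21, 0.0381% of all tested genes were called and with IL-21 0.019%, again with 0 of the 38. At an unadjusted p under 0.05 the same test passed 5 of the 38 on average (7.78% of all tested genes), 3 without IL-21 (4.53%) and 5 with it (5.27%), and DESeq2's Wald test called 0 in all 3 contrasts. With the replicate number as a block, 4 of the 38 were called on average (2.51% of all tested genes), 2 without IL-21 (0.59%) and 3 with it (0.78%), all of them higher in Ly6Clo cells: Atp6v0d2 and Ctsl in each, Lipa on average and with IL-21, and Ctsd on average. The median log2 fold change was 0.08 on average (all tested genes, 0.00), 0.05 without IL-21 (0.00) and 0.13 with IL-21 (-0.01), and 24 of the 38 genes were higher in Ly6Clo cells on average.

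Of the 38 genes, 4 were higher in all Ly6Clo libraries than in all Ly6Chi ones, which held for 2.61% of all tested genes. These were Ctsl, Ctsd, Ctsa and Glb1. Ctss was lower in all of them, which held for 2.74% of all tested genes. The gap in Ctss was very small, with the highest Ly6Clo library at 10776 CPM and the lowest Ly6Chi library at 10789 CPM.

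Ctsl, the endoprotease shown above with its promoter, was at 5800 and 5039 CPM in Ly6Chi cells without IL-21 and at 5645 and 6266 CPM with it. In Ly6Clo cells it was at 9619 and 7095 CPM without IL-21 and at 9872 and 8287 CPM with it. The lowest Ly6Clo library was above the highest Ly6Chi library. Its log2 fold change of 0.62 (SE 0.15, 95% interval 0.29 to 0.94) did not pass (edgeR, adjusted p = 0.193). With the replicate block it passed, at 0.61 (SE 0.10, edgeR adjusted p = 0.000402). The log2 ratio was 0.77 within number 1 and 0.44 within number 2. Without IL-21 it was 0.62 (SE 0.22) and with IL-21 0.61 (SE 0.22), and both passed with the block only (edgeR adjusted p = 0.0313 and 0.0364).

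Ctsd, the main aspartic protease of the lysosome, was at 1693, 1598, 1724 and 1534 CPM in the Ly6Chi libraries and at 2447, 1955, 2392 and 1958 CPM in the Ly6Clo libraries. Its log2 fold change was 0.42 (SE 0.15, edgeR adjusted p = 0.524, 0.0165 with the block). Ctsa, the carboxypeptidase that protects Neu1 and Glb1 in a complex, was at 307 to 420 CPM in Ly6Chi and 426 to 513 CPM in Ly6Clo libraries, so that the groups were separated by little. The end of Ctsa overlaps Pltp on the opposite strand. Glb1, the lysosomal beta-galactosidase, was at 49.2, 26.7, 33.9 and 34.8 CPM in Ly6Chi libraries and at 64.4, 54.9, 68.0 and 77.3 CPM in Ly6Clo libraries, from 7 to 31.4 counts. Its log2 fold change was 0.87 (SE 0.29, edgeR adjusted p = 0.432, 0.103 with the block).

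Atp6v0d2 had the largest subset difference of the 38 genes. All 4 Ly6Clo libraries were between 98.4 and 243 CPM, and 3 of the 4 Ly6Chi libraries were between 19.9 and 39.5 CPM, with Ly6Chi without IL-21 number 1 overlapping at 114 CPM. The log2 fold change was 1.65 (SE 0.40, 95% interval 0.77 to 2.53), and it did not pass (edgeR, adjusted p = 0.202). With the replicate block it passed at 1.74 (SE 0.24, edgeR adjusted p = 4.91e-05). Leaving out Ly6Clo without IL-21 number 2 also took it past the threshold (1.89, edgeR adjusted p = 0.0482), while in the other 7 such fits it did not pass. Atp6v0d1, which encodes the widely expressed form of the d subunit, spanned 99.9 to 163 CPM with a log2 fold change of 0.16 (SE 0.23). Atp6v1a and Atp6v1b2, which encode A and B subunits of the ATP-cleaving head, had values of 1032 to 1540 and 1069 to 1712 CPM, and the accessory subunit gene Atp6ap1 927 to 1216 CPM.

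Lipa was at 1253, 1055, 851 and 722 CPM in Ly6Chi libraries and at 1512, 1147, 1341 and 1111 CPM in Ly6Clo libraries, which overlapped. Its log2 fold change of 0.42 (SE 0.16, edgeR adjusted p = 0.530) passed with the block (adjusted p = 0.0199). With IL-21 the Lipa difference was 0.64 (SE 0.23), with an adjusted p of 0.913 that became 0.0335 with the block in edgeR. The lowest averaged subset value of the 38 belonged to Neu1, at -0.30 (SE 0.23). Leaving out single libraries gave -0.49 to -0.037 for it, with -0.037 without Ly6Chi without IL-21 number 1. In cells with IL-21 it was -0.74 (SE 0.34, edgeR adjusted p = 0.918). Without IL-21 the lowest was Ctsc, at -0.50 (SE 0.22, edgeR adjusted p = 0.995). For Ctss, the log2 fold change was -0.18 (SE 0.14).

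**Figure D3:**
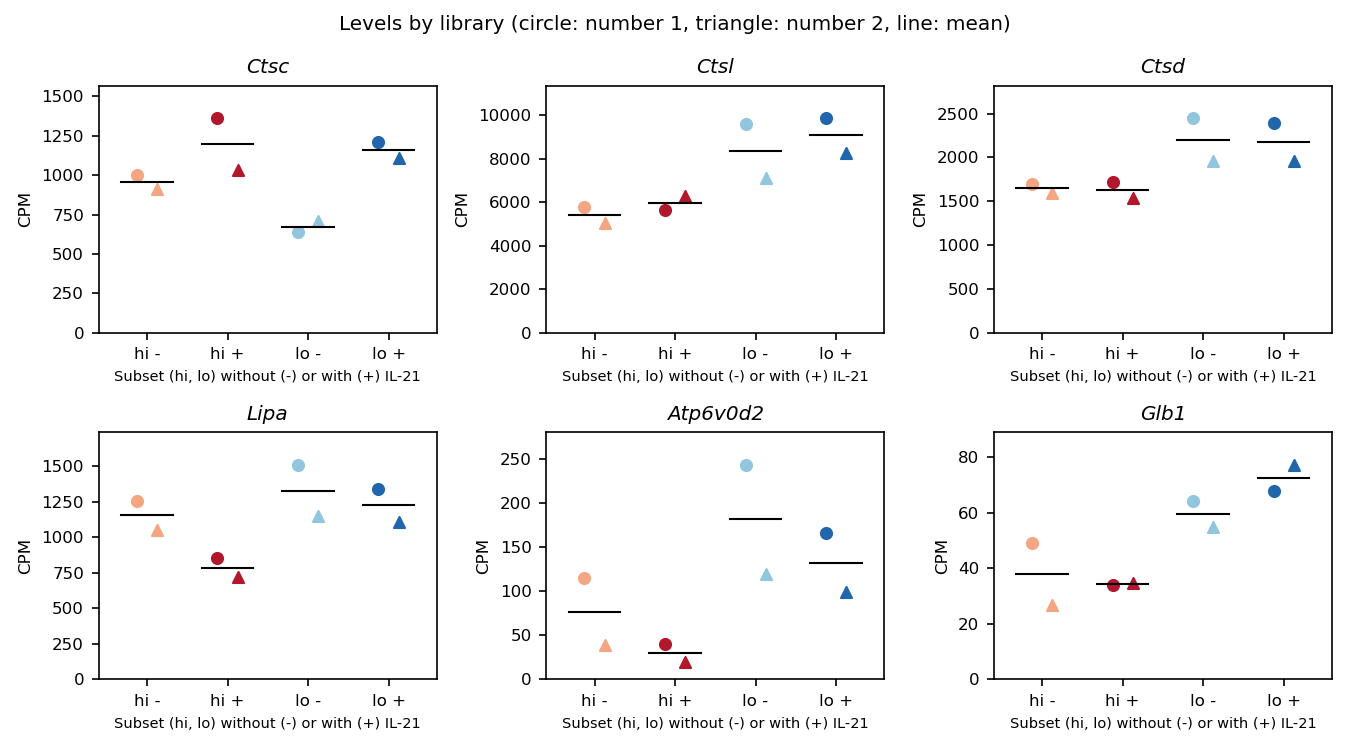
CPM of Ctsc, Ctsl, Ctsd, Lipa, Atp6v0d2 and Glb1 in each library, by subset and stimulation; circles are number 1, triangles number 2 and lines group means of 2 libraries. Ctsc lies higher with IL-21 in both subsets, and Ctsl, Ctsd and Glb1 lie higher in all 4 Ly6Clo libraries.

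Some markers also varied with the subset. The 6 genes of the Ly6Chi monocyte list summed to 833 to 988 CPM in Ly6Chi and 186 to 453 CPM in Ly6Clo libraries. Of its 5 tested genes, Ly6c2 and Chil3 passed as lower in Ly6Clo cells (Chil3 -2.16, SE 0.38, edgeR adjusted p = 0.0360). Plac8 passed with the block only (-2.77, SE 0.81, edgeR adjusted p = 0.496, 1.40e-06 with the block). Ccr2 (-0.25, SE 0.61) and F13a1 (-0.40, SE 0.44) passed in neither fit. The 6 genes of the neutrophil list summed to 1403 to 2335 CPM in Ly6Chi and 641 to 1262 CPM in Ly6Clo libraries. Most of that sum was Mmp8, at 1287 to 2152 CPM in Ly6Chi and 537 to 1195 CPM in Ly6Clo libraries. Between the subsets 0 of the 2 tested genes of the list passed, and Mmp8 did with the block (-0.98, SE 0.29, edgeR adjusted p = 0.432, 1.57e-06 with the block). The other tested gene, S100a8, passed in neither fit (-0.37, SE 0.29, edgeR adjusted p = 0.812, 0.570 with the block). Csf3r, Cxcr2, Retnlg and S100a9 had too few counts to be tested. Of these, Retnlg was at 0 in all libraries and S100a9 reached at most 3.81 CPM. Of the 7 macrophage markers 0 passed, and with the block Adgre1 was lower (-0.72) and C1qa higher (0.60) in Ly6Clo cells. In bulk samples, fewer cells of a type and less RNA per cell cannot be told apart. The part of these markers in the lysosomal subset differences was not tested.

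The libraries numbered 2 were also set against those numbered 1. In a fit of group plus number, 431 of all tested genes (8.2%) were called between the libraries numbered 2 and those numbered 1, and 7 of the 38 (18.4%) were. Of these, 3 were higher in number 2 (Ctsk, Ctsz and Grn) and 4 lower (Lyz2, Atp6v0d2, Man2b1 and Hexa). The 2 shares are not like for like, since the median SE was 0.113 for the 38 and 0.242 for all tested genes. Another count is of libraries without overlap: 4 of the 38 were higher without overlap in number 2 (Ctsk, Ctsz, Grn and Npc2), which 5.96% of all tested genes were, and 5 were lower without overlap (Lyz2, Man2b1, Hexa, Gusb and Lamp1), which 5.1% of all tested genes were. At an unadjusted p under 0.05, 13 of the 38 passed, against 21.6% of all tested genes. The median log2 fold change of the 38 was -0.09, against 0.00 for all tested genes.

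Lyz2 encodes lysozyme, the enzyme that cleaves bacterial cell walls and one of the best-known products of macrophages. In the libraries numbered 1 it was at 6773 CPM in Ly6Chi without IL-21, 5932 in Ly6Chi with IL-21, 4649 in Ly6Clo without IL-21 and 4238 in Ly6Clo with IL-21. The libraries numbered 2 had 2964, 2489, 3446 and 2820 CPM in the same order. All numbered 2 were below all numbered 1. The log2 fold change was -0.86 (SE 0.12, 95% interval -1.11 to -0.62, edgeR adjusted p = 3.06e-05). By group the log2 ratio was -1.19 and -1.25 in Ly6Chi cells without and with IL-21, and -0.43 and -0.59 in Ly6Clo cells. Whether the subsets differ in this was not tested. The near copy Lyz1 shares 7.04% of the 75-base windows at the end of the Lyz2 transcripts.

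Among the other glycan-cleaving enzymes, Man2b1, the lysosomal alpha-mannosidase, fell from 182, 189, 216 and 180 CPM in number 1 to 151, 129, 123 and 116 CPM in number 2. The log2 fold change was -0.57 (SE 0.17, edgeR adjusted p = 0.0384). Hexa, the alpha subunit of beta-hexosaminidase, fell from 647, 521, 574 and 605 CPM to 383, 448, 487 and 471 CPM (-0.39, SE 0.12, edgeR adjusted p = 0.0464). Neither gene's libraries overlapped between the numbers. Gusb, the beta-glucuronidase, was at 188 to 230 CPM in number 1 and 124 to 187 CPM in number 2 and did not pass (-0.43, SE 0.16, edgeR adjusted p = 0.110). Of the 7 glycan-cleaving enzymes, 3 fell and 0 rose, and the rest did not pass.

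Atp6v0d2 fell in number 2 relative to number 1 by a log2 fold change of -1.02 (SE 0.21, edgeR adjusted p = 0.00222), and by group by -1.58, -0.99, -1.03 and -0.75 as log2 ratios in Ly6Chi without, Ly6Chi with, Ly6Clo without and Ly6Clo with IL-21. The library numbered 2 was thus the lower one in all 4 groups. No other proton pump gene passed for the number.

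In the other direction, Ctsk, the collagen-degrading cathepsin of osteoclasts, was at 127, 113, 74.7 and 95.9 CPM in number 1 and at 179, 134, 173 and 243 CPM in number 2. It rose by a log2 fold change of 0.85 (SE 0.20, edgeR adjusted p = 0.00632). Ctsz, a carboxypeptidase, rose from 666, 627, 530 and 589 to 819, 734, 833 and 839 CPM (0.43, SE 0.11, edgeR adjusted p = 0.0168). Grn, the precursor of the granulins, rose from 3062, 3304, 3422 and 3306 to 3959, 5051, 3651 and 3983 CPM (0.34, SE 0.10, edgeR adjusted p = 0.0318). All 3 were higher in every library numbered 2 than in any numbered 1. The ends of Ctsz and Grn overlap exons of Nelfcd and Fam171a2 on the opposite strand. Npc2, a cholesterol carrier of the lumen, was also higher without overlap, at 2390 to 2703 CPM in number 1 and 2998 to 3292 CPM in number 2, but did not pass (0.27, SE 0.09, edgeR adjusted p = 0.0798).

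Of the 7 calls, only that of Lyz2 held in all the fits tried. This comparison sets the libraries of a group against each other, so leaving out either library of a group takes that group out of it. Without a library of Ly6Clo with IL-21, Lyz2 and Atp6v0d2 were called of the 38. Without a library of Ly6Clo without IL-21, Lyz2 and Grn were called, and Atp6v0d2 missed the threshold at -1.0. Ctsk missed it without a library of either Ly6Clo group (0.66 to 0.74), as did Ctsz (0.35 to 0.40). Grn missed it at 0.24 without a library of Ly6Chi with IL-21, at 0.32 without one of Ly6Chi without IL-21 and at 0.36 without one of Ly6Clo with IL-21. Man2b1 missed it without a library of Ly6Chi with IL-21 (-0.58) or of either Ly6Clo group (-0.55 and -0.47). Hexa missed it without a library of Ly6Chi without IL-21 (-0.28) or of either Ly6Clo group (-0.40 and -0.45). DESeq2's Wald test called Lyz2 alone of the 38 and 2.44% of all tested genes.

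**Figure D4:**
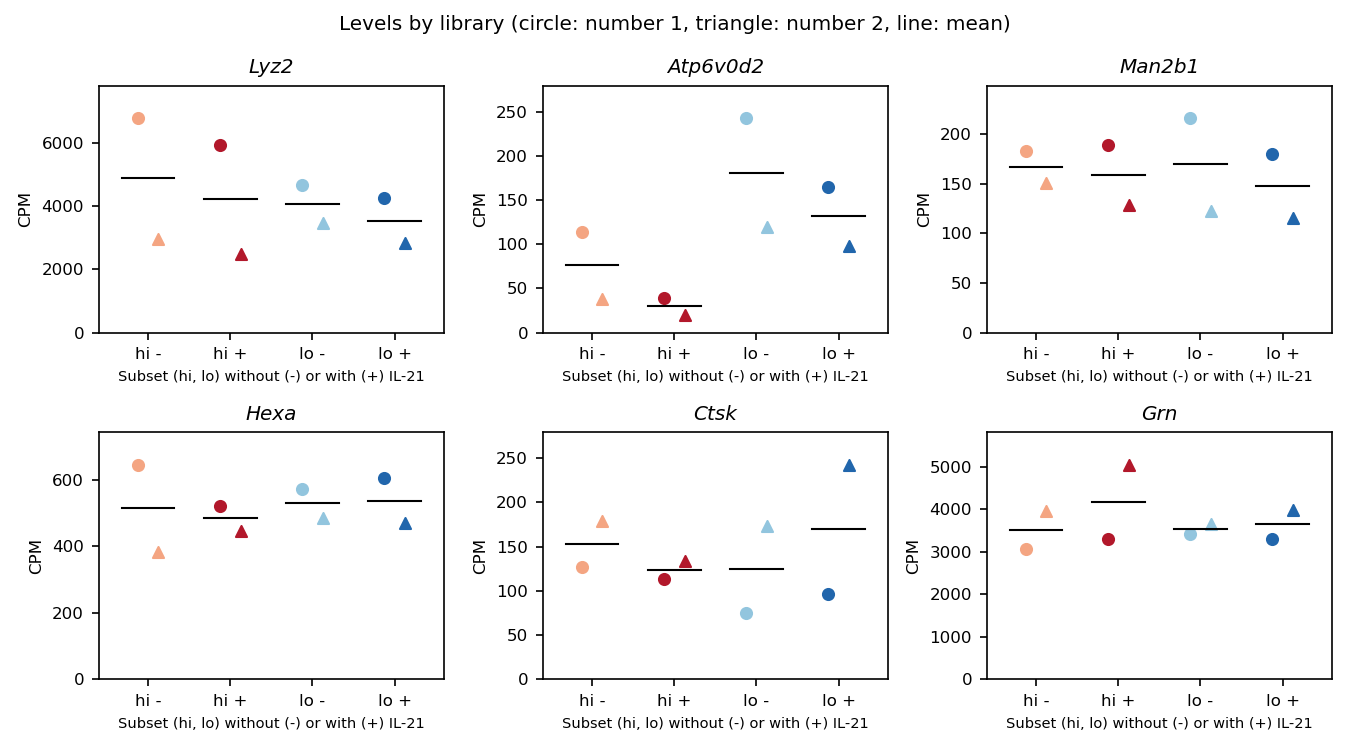
CPM by library of 6 of the 7 genes that passed between the replicate numbers; circles are number 1, triangles number 2 and lines group means of 2 libraries. Lyz2, Atp6v0d2, Man2b1 and Hexa are lower in number 2 within each of the 4 groups, and Ctsk and Grn are higher.

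Other measures also differed between the numbers, though not all of them in every group. Number 2 of both Ly6Clo groups held 483593 and 444670 counts, the highest of the 8 libraries. In Ly6Chi cells the total went from 261205 to 284174 counts without IL-21 and from 287131 to 224329 with it. Of the 7 macrophage markers, which had a median log2 fold change of 0.04, Fcgr1 passed as higher in number 2 (0.65, SE 0.11) and Csf1r (-0.67, SE 0.11) and Mrc1 (-1.23, SE 0.16) as lower. Of the 5 tested genes of the Ly6Chi monocyte list, Plac8 passed as higher (1.85, SE 0.31). The other 4 had a negative sign and did not pass, and the summed list had a log2 ratio of -0.15. The endothelial list (4 genes, 1 tested) summed to 56.1 to 137 CPM in number 1 and 189 to 338 CPM in number 2, nearly all of it from Kdr, and its Tie1 was at 0 in all libraries. The fibroblast list (6 genes, 2 tested) summed to 15.8 to 112 CPM in number 1 and 32.9 to 160 CPM in number 2. These ranges overlapped, and neither tested gene passed. The neutrophil list (6 genes, 2 tested) summed to 1240 to 2335 CPM in number 1 and 641 to 1699 CPM in number 2, of which Mmp8 fell. Their part in the lysosomal differences was not tested.

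As a single score, the summed CPM of the 39 genes was 65539 and 62394 in Ly6Chi cells without IL-21, 62313 and 67198 in Ly6Chi cells with it, 71916 and 62985 in Ly6Clo cells without it, and 72246 and 67598 in Ly6Clo cells with it. The 2 libraries of a group lay furthest apart in Ly6Clo cells without IL-21. The log2 ratio of the means was 0.035 for IL-21, 0.094 for Ly6Clo against Ly6Chi and -0.064 for number 2 against number 1. The pooled SD within groups was 0.089 on the same scale. That SD is the spread of single libraries and not of the means, so it gives no verdict on these ratios. Within number 1 and number 2, the ratio was -0.031 and 0.10 for IL-21, and 0.17 and 0.011 for the subsets. By role, the summed cathepsins spanned 29585 to 36890 CPM and the proton pump 3267 to 4539 CPM. The glycan-cleaving enzymes spanned 3972 to 8562 CPM, at 5828 to 8562 CPM in number 1 and 3972 to 4989 CPM in number 2, and most of that sum was Lyz2.

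**Figure D5:**
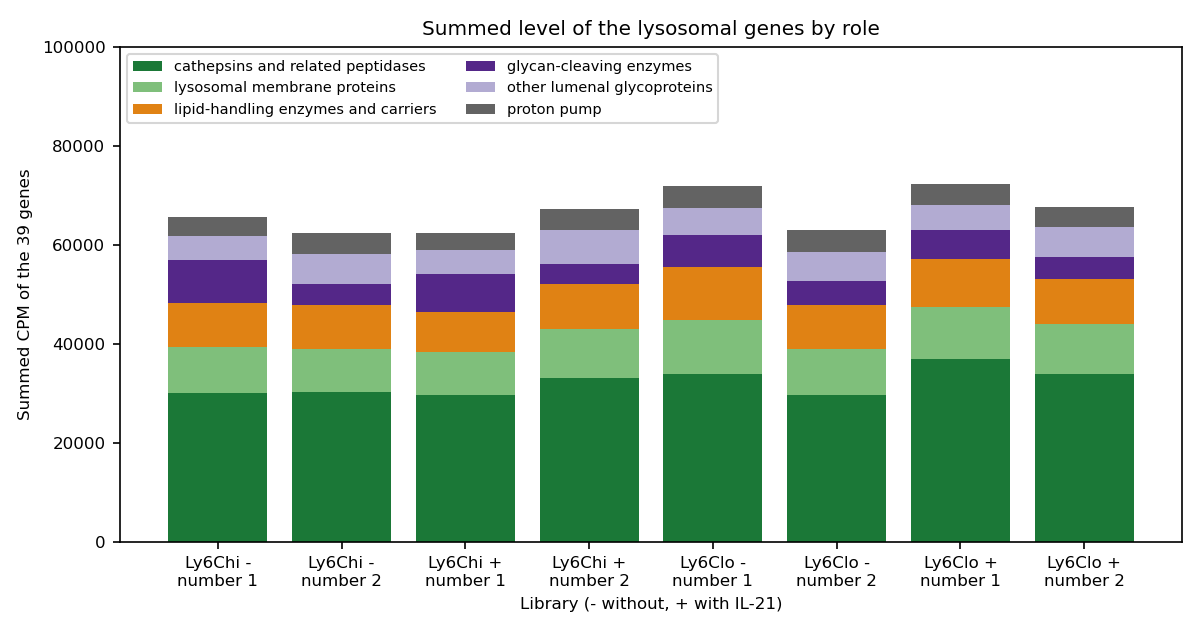
Summed CPM of the 39 genes in each library, stacked by role, with - and + for culture without and with IL-21. The totals lie between 62313 and 72246 CPM, and the glycan-cleaving layer is thinner in number 2 of each group.

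A further 5 lists cover the rest of the lysosomal pathway, with 85 genes of which 63 were tested. These are other hydrolases (21 of 30 tested), other pump subunits (12 of 12), other membrane and sorting proteins (17 of 20), cathepsin inhibitors (3 of 9) and regulators of lysosome biogenesis such as Tfeb and Mtor (10 of 14). For IL-21 averaged over the subsets, 0 of the 63 passed edgeR's test, and 2 had an unadjusted p under 0.05. Both were hydrolases, the phospholipase Pla2g15 at a log2 fold change of 0.78 (SE 0.29) and the acid phosphatase Acp2 at -0.40 (SE 0.18). The medians of the lists lay between -0.21 and 0.10.

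Between the subsets, 1 of the 63 passed. Serpinb6a, an intracellular inhibitor of serine proteases such as cathepsin G, was at 109, 106, 84.4 and 100 CPM in the Ly6Chi libraries and at 239, 211, 163 and 230 CPM in the Ly6Clo libraries. It was higher in every Ly6Clo library, by a log2 fold change of 1.10 (SE 0.20, edgeR adjusted p = 0.0370). In 6 of the 8 fits that each left out a library it no longer passed (edgeR adjusted p 0.107 to 0.245), with a log2 fold change of 0.96 to 1.20 over all 8, nor did it with DESeq2 (adjusted p = 0.148). With the replicate block 3 of the 63 passed, against 2.51% of all tested genes. Acp2 was among them, at -0.70 (SE 0.18, edgeR adjusted p = 0.202, 0.0143 with the block). Of the 12 other pump subunits and the 10 regulators, 0 passed for IL-21 or subset.

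Between the numbers, 4 of the 63 passed, against the 8.2% of all tested genes given above. Aga, which cleaves the link between sugar and asparagine, rose by a log2 fold change of 0.95 (SE 0.27, edgeR adjusted p = 0.0295), and Slc29a3, a nucleoside transporter, by 0.55 (SE 0.16, edgeR adjusted p = 0.0284). Sort1, a sorting receptor, fell by 1.06 on the log2 scale (SE 0.30, edgeR adjusted p = 0.0234) and Lamtor2, a scaffold for mTORC1 at the lysosome, by 0.46 (SE 0.14, edgeR adjusted p = 0.0413).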

How the data were processed

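The 8 libraries, 2 in each of 4 groups, were made with a QuantSeq 3′ kit plus a second-strand module that adds unique molecular identifiers, and sequenced from 1 end over 75 bases, per the labels' protocols. The files hold expected counts, that is, estimated counts per Ensembl gene, which the authors deposited under the name raw per the file headers; of the values above 0, 53.3 to 59.7% were not whole (tolerance 0.001). Per the submitters' processing notes, DESeq2 was used and the build was mm10; no version is named. Which aligner, counter and annotation were used, and whether identifiers or strand entered the counting, is not given in the sources used here. Count-based limits cover counting error only, and if identifiers were not used, counts include amplified copies.

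Values were rounded to whole numbers, and identifiers were matched to GENCODE M21 symbols (53237 of 53342). The filter filterByExpr (minimum count 10, minimum total 15) left 5256 genes. After TMM scaling, edgeR 4.0.16 (with limma 3.58.1 in R 4.3.3) fitted 4 group means, and each contrast had a robust quasi-likelihood test, with calls at a Benjamini-Hochberg adjusted p under 0.05 over all 5256 genes. Residual degrees of freedom were 4, prior ones 10.6 (median), and the common biological coefficient of variation was 0.201. CPM are deposited values over TMM-scaled totals of the kept genes. SE is the standard error of the log2 fold change, computed as its absolute value over the square root of F. The summed score has no test. The fit was also run on simulated counts. These had independent libraries and no effect of the replicate number, so that run cannot show how the fit behaves with such an effect.

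The replicate numbers come from the titles. Deviations of same-numbered libraries from their group means correlated at 0.219 to 0.396 in all 6 pairs of groups, so the fit with the number as a block is given beside results whose call it changes. Alternatives were the block, DESeq2 1.42.0, its size factors, no filter, a mean count of at least 20, unrounded values and leaving out each library.

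Members and lists were chosen with earlier results of these data known. Values by library are given for members called in any contrast, those with the largest and smallest log2 fold change of a contrast and the 5 highest, and pathway genes are named if called or among the smallest p of a list. Ctsd, Ctsa, Glb1, Lipa, Asah1, Gusb, Npc2, Acp2 between the subsets and the genes named for their narrow range were named after their values were seen. A result on 1 further pathway gene is not reported here.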

Additional observations from a re-analysis of the deposited data

How the results depend on the processing

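Of 111 alternative counts of called lysosomal genes, 98 stayed within 1.5 times the main count. With the replicate block the count went from 0 to 1 for IL-21 averaged and for IL-21 in Ly6Clo cells (Ctsc in both), to 4 for the averaged subset difference (Atp6v0d2, Ctsd, Ctsl and Lipa), to 2 for the subsets without IL-21 (Atp6v0d2 and Ctsl) and to 3 with IL-21 (Atp6v0d2, Ctsl and Lipa). For IL-21 in Ly6Chi cells and for the difference between the IL-21 effects the block changed no call. Without a filter on low counts it was 2 for the averaged subset difference (Atp6v0d2 and Ctsl) and 1 with IL-21 (Atp6v0d2). Leaving out each library in turn gave 0 to 1 for the averaged subset difference and 2 to 6 for the replicate numbers, for which DESeq2 gave 1 in place of 7. The block also raised the calls over all tested genes, by the shares given with each comparison. The cause of these shifts was not tested.

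Of 110 alternative log2 ratios of the summed score, 100 moved by less than 0.089, the pooled SD of single libraries within groups. The main ratios for IL-21 (0.035) and for the number (-0.064) are smaller in size than this. Such a ratio could vanish or change sign and still count as unmoved, so the tally does not show stability. The averaged IL-21 ratio was -0.031 within number 1 and 0.10 within number 2. For IL-21 in Ly6Chi cells the ratio was -0.073 within number 1 and 0.11 within number 2, and for the subsets with IL-21 it was 0.21 within number 1 and 0.0086 within number 2. Leaving out each library gave -0.041 to 0.15 for IL-21 in Ly6Clo cells, -0.058 to 0.13 for the difference between the IL-21 effects and -0.022 to 0.17 for the subsets without IL-21, each end set by one of the 2 libraries of Ly6Clo without IL-21.

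Of 403 alternative values for single genes, 319 kept direction and side of the threshold, 71 kept direction but no longer passed, 12 passed where they had not, and 1 reversed. That was the difference between the IL-21 effects on Atp6v0d2, -0.10 without Ly6Chi without IL-21 number 1, within a range of -0.10 to 1.48 over the libraries left out. In the comparison of replicate numbers, leaving out either library of a group takes out the same group, so these alternatives are not all separate. With 2 libraries a group and 3 counts worth 6.58 to 14.9 CPM, differences in Glb1, Atp6v0d2 and Atp6v0c rest on few counts.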
